A study of Homo sapiens with 12 samples.

Results

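The accessibility of 9 genes of the tight junction and of epithelial identity was examined in DU-145 and BT-549 cells, namely CLDN1, CLDN3, CLDN4, CLDN7, OCLN, TJP1, TJP3, EPCAM and ESRP1. They are 9 of 20007 protein-coding genes in GENCODE v44. Each gene was taken with its body and the 20 kb on both sides, and every 100-bp bin of the ATAC-seq tables within that window was used. The windows held 63 accessible regions of 79177 in DU-145 cells (686 of 709366 bins) and 32 of 46298 in BT-549 cells (347 of 472994 bins). In all, 26 regions (288 bins) were present in both tables.

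DU-145 is a cell line of castration-resistant prostate cancer, and BT-549 is a cell line of triple-negative breast cancer. Both lines carry tet-MUC1shRNA, a hairpin against MUC1 that is switched on by doxycycline (DOX). The DOX groups were given DOX, and the vehicle groups, with the same hairpin, were given 0.1% DMSO. Each of the 4 groups had 3 biologically independent libraries, made from 50000 cells after 7 days. Each line was 1 population with 1 hairpin, no cells with another hairpin were compared, and the effects of silencing and of DOX itself cannot be told apart. ATAC-seq does not measure MUC1 silencing, so the knockdown was not checked here.

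Epithelial cells are held together at their apical border by tight junctions, in which strands of claudins and of occludin seal the space between neighbouring cells and the cytoplasmic zonula occludens proteins tie those strands to actin. EPCAM, an adhesion molecule of the lateral membrane, associates with claudins, and ESRP1 directs the splicing of transcripts into their epithelial isoforms. These genes are commonly silenced in the epithelial-mesenchymal transition, in which the repressors ZEB1, SNAI1 and SNAI2 bind E-boxes of their promoters.

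A region is a run of adjoining bins and is named by its gene and the distance of its middle from the canonical start site (TSS), with a minus sign for upstream. Its level is the mean bin value per 1000000 of the summed bin values of the library. An average bin has a level of 1.41 in DU-145 and 2.11 in BT-549 cells, because the tables hold different numbers of bins, and levels are therefore compared between the lines only over shared bins with a test. A region entered a table only where at least 3 libraries of the line had a peak. A region with peaks in a single group was thus selected for being high there. Fold changes are log2 values from the quasi-likelihood test of edgeR, p-values were adjusted over all features of a fit by the Benjamini-Hochberg method, and "rose" and "fell" are used for an adjusted p under 0.05.

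Depth was uneven. Column sums, in units of 1000000, ranged from 12.4 to 24.0 for the vehicle and from 16.3 to 25.2 for the DOX libraries of DU-145, and from 9.14 to 13.6 for the vehicle but only from 2.5 to 3.27 for the DOX libraries of BT-549, so that losses in BT-549 rest on few fragments. Of 6 epithelial markers, all had a promoter peak in all 6 DU-145 libraries. In BT-549 cells, KRT8 had one in 0 of 6 libraries, CDH1 and EPCAM in 1, KRT18 and CLDN7 in 3 and ESRP1 in all 6. Of 7 mesenchymal markers, VIM, ZEB1, FN1 and SNAI2 had one in all 12 libraries, CDH2 and TWIST1 in all 6 of BT-549 and none of DU-145, and ZEB2 in 1 of BT-549. No promoter peak was found in DU-145 cells for the prostate markers KLK3 and HOXB13. Leukocyte and endothelial markers (PTPRC, CD3E, PECAM1 and CDH5) had no promoter peak in any of the 12 libraries.

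In DU-145 cells, 29 of the 63 regions rose with DOX, 13 fell and 21 were not called. Over all DU-145 regions, 37.1% rose and 17.4% fell, and changes of both kinds were thus common across the genome. In bulk libraries, a change in the share of cells with an open region and a change of opening per cell cannot be told apart. The median log2 change was 0.27 for the 63 regions and 0.24 for all regions. With TMM factors, which centre the libraries on their typical region, the median of all regions moved to 0.05. The share of rising among called regions moved from 68.0% to 54.1%. With these factors 22 of the 63 regions rose and 19 fell, against 23745 and 20167 of all 79177 regions. In BT-549 cells, 7 of 32 regions rose and 8 fell, against 12.2% and 18.0% of all regions. With TMM factors 9 of the 32 rose and 6 fell, against 7341 and 6845 of all 46298 regions. The medians were -0.13 and -0.10, and the share of rising among all called regions was 40.4%, or 51.7% with TMM factors.

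**Figure D1:**
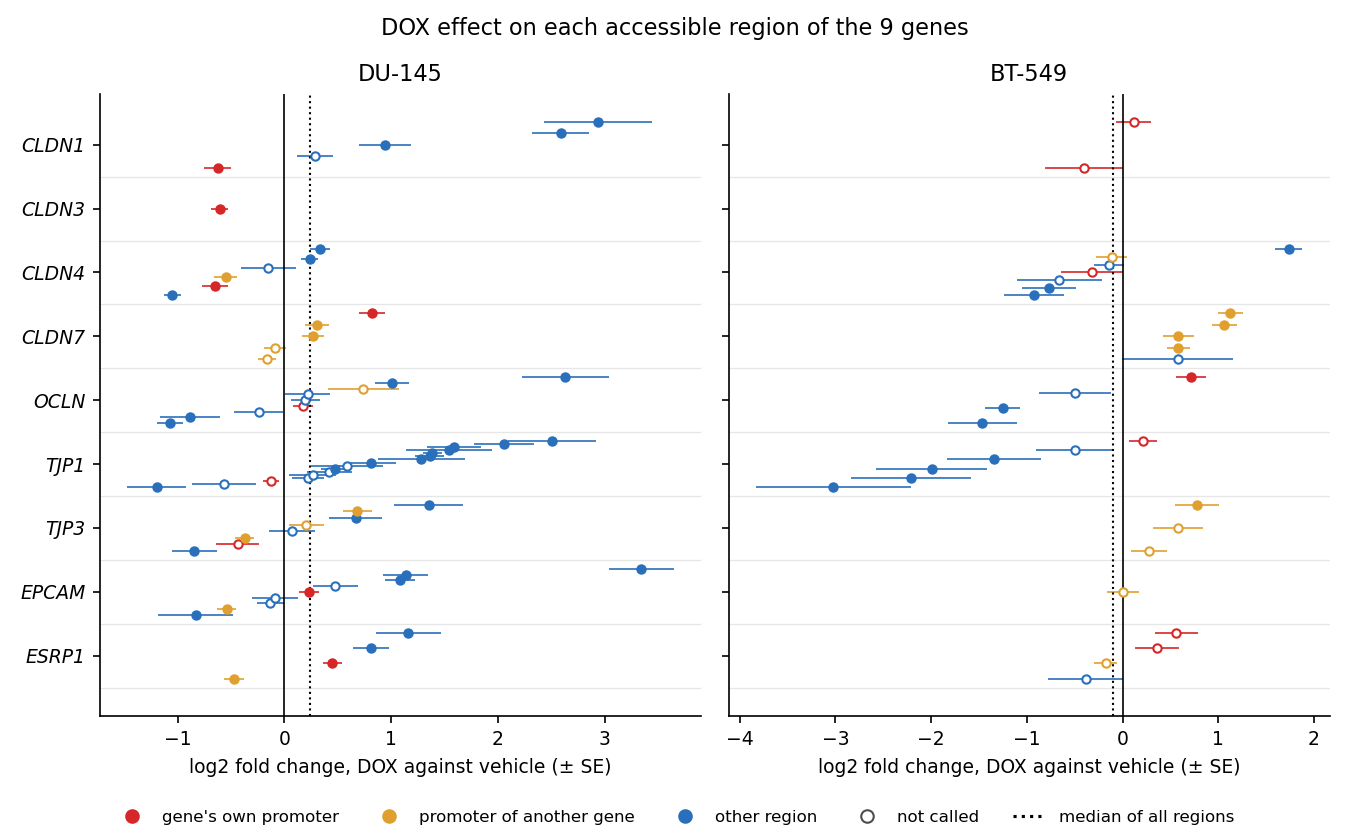
Log2 fold change with DOX and its standard error (x axis) for every accessible region of the 9 genes (y axis), with 63 regions in DU-145 cells (left) and 32 in BT-549 cells (right). Filled circles were called at an adjusted p under 0.05, and the dotted line is the median of all regions. In DU-145 cells the highest values belong to regions away from the promoters of EPCAM, CLDN1, OCLN and TJP1, and in BT-549 cells the highest is CLDN4 -8.2 kb at 1.73.

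All 9 genes had a promoter peak, within 1 kb of the TSS, in all 3 vehicle and all 3 DOX libraries of DU-145, as did 66.0% of 20007 protein-coding genes. In BT-549 cells, CLDN1, OCLN, TJP1 and ESRP1 had one in all 6 libraries, 4 of 9 genes against 55.8% of all genes, and 6 of 9 had one in all 3 vehicle libraries, against 66.7%. CLDN4 and CLDN7 had one in the 3 vehicle libraries and in 0 DOX libraries, CLDN3 in 2 vehicle libraries, EPCAM in 1 and TJP3 in none of the 6. When the summit itself had to lie within 1 kb, CLDN4 and CLDN7 kept 1 vehicle library each and ESRP1 kept 2. The absence of peaks in BT-549 DOX cells goes with their low depth, whose part was not tested.

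Promoters as a class moved apart from other regions. In DU-145 cells, the median log2 change was -0.17 for 12714 regions within 1 kb of a protein-coding TSS, of which 8.66% rose and 39.0% fell, and 0.39 for the other 66463 regions. In BT-549 cells it was 0.10 for 12311 such regions, of which 18.0% rose and 6.84% fell, and -0.25 for the rest. With TMM factors the medians of the promoter class were -0.36 in DU-145 (4.06% rose and 61.3% fell) and 0.20 in BT-549 cells (25.9% and 3.95%), and those of the rest were 0.20 and -0.14. Among the 9 promoters in DU-145 cells, those of CLDN1, CLDN3 and CLDN4 fell, those of CLDN7, ESRP1 and EPCAM rose and the remaining 3 were not called. With TMM factors the EPCAM call was lost, and the promoters of TJP1 and TJP3 fell. Of the 5 genes with a promoter region in BT-549, only OCLN rose, and 4 were not called.

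**Figure D2:**
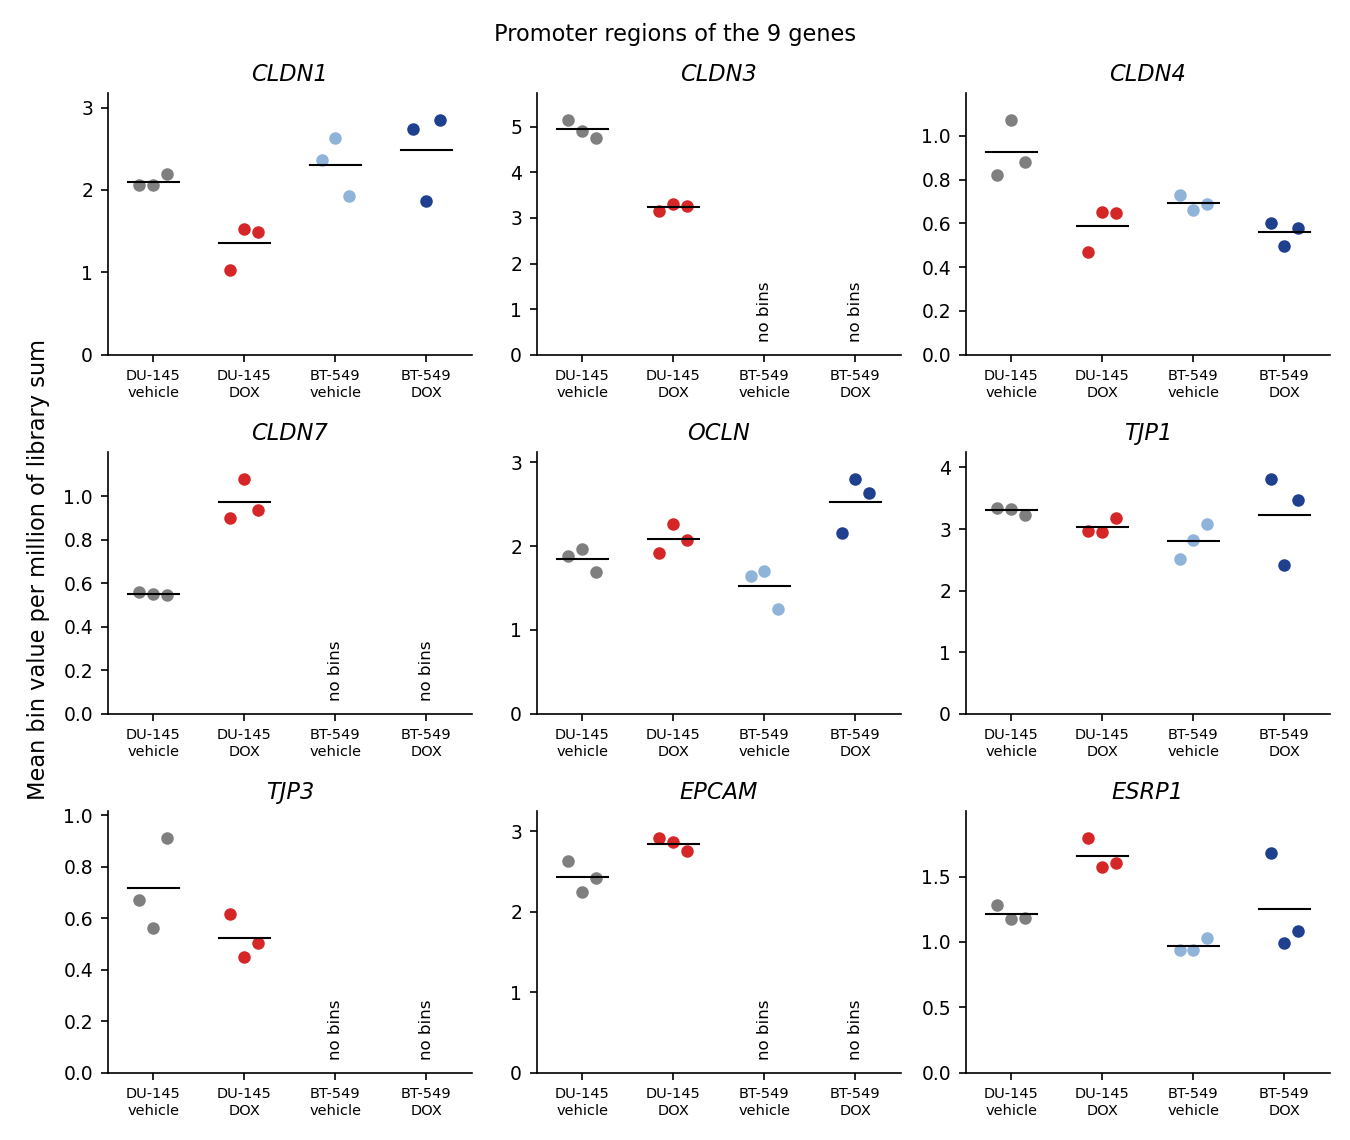
Level of the promoter region (y axis, mean bin value per 1000000 of the library sum, from 0) in each of the 12 libraries for the 9 genes, with a line at the mean of 3 libraries. The DOX libraries of DU-145 lie below all vehicle libraries at CLDN1, CLDN3, CLDN4 and TJP1, of which TJP1 was not called, and above them at CLDN7, EPCAM and ESRP1. Regions were defined separately in each line, and "no bins" marks a promoter with no region in BT-549.

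Of the claudins, the membrane proteins that set the tightness of the junction, CLDN1 is a sealing member. The level of its promoter region (chr3:190321701-190323000, GRCh38) in DU-145 cells was 2.06, 2.05 and 2.19 in vehicle and 1.03, 1.53 and 1.49 in DOX libraries, and it fell by 0.62 on the log2 scale (SE 0.13, adjusted p = 6.95e-05). Regions downstream of the gene went the other way. At CLDN1 +18.3 kb (chr3:190303901-190304400) the vehicle libraries read 0.142, 0.199 and 0.186 and the DOX libraries 1.17, 1.08 and 0.965, a log2 change of 2.59 ± 0.27 (SE) (adjusted p = 4.34e-10). No vehicle library and all 3 DOX libraries had a peak there, so the region entered the table through its DOX peaks alone, which favours a rise. CLDN1 +25.4 kb (chr3:190296901-190297200) behaved alike, with 0.0760, 0.0669 and 0.0213 in vehicle, 0.534, 0.407 and 0.477 in DOX and a change of 2.93 ± 0.51 (SE) (adjusted p = 7.52e-06). CLDN1 +2.6 kb, in an intron, rose by 0.94 ± 0.24 (SE) (adjusted p = 0.00114), a call that was lost with loess offsets and after removal of a GC trend.

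In BT-549 cells, the CLDN1 promoter did not change beyond the spread of the libraries. It read 2.37, 2.62 and 1.93 in vehicle and 2.74, 1.86 and 2.85 in DOX libraries (log2 change 0.12 ± 0.18 (SE), adjusted p = 0.671). The regions downstream of CLDN1 had no bins in the BT-549 table. The effect of DOX on the promoter differed between the lines by 0.76 ± 0.23 (SE) (interaction, adjusted p = 0.00660).

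CLDN3, a further sealing claudin, had a single region, its promoter (chr7:73769701-73771100). It had the highest level of the 9 promoters in DU-145 cells, with 5.15, 4.90 and 4.76 in vehicle and 3.14, 3.31 and 3.27 in DOX libraries. The groups did not overlap, and the level fell by 0.61 on the log2 scale (SE 0.08, adjusted p = 1.24e-07). The 200 bases before its start site are printed here because this was the 1 region of the gene, with the SP1 motif GGGCGG (either strand) in capitals. The sequence is chr7:73770271-73770470 of GRCh38 on the minus strand, and it holds GGGCGG at 3 places, as do 1 or more in 56.4% of 20007 promoters of that length.
CLDN3 promoter: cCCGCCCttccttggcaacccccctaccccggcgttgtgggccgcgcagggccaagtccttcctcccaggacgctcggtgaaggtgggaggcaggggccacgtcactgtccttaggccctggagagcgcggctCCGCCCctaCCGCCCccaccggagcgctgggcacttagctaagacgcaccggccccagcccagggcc

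CLDN4, which lies on the same chromosome as CLDN3, differed between the lines in its response to DOX. The 200 bases around the highest bin of its region at -8.2 kb are shown first because the comparison of the lines turned on this region (chr7:73822651-73822850, GRCh38, plus strand). Capitals mark TGANTCA, the AP-1 motif, on either strand. The window holds it at 2 places, and 33.3% of the windows of this length around the highest bins of all DU-145 regions, and 19.3% in BT-549, hold it at least once. A match describes the letters and does not show binding.
CLDN4 -8.2 kb: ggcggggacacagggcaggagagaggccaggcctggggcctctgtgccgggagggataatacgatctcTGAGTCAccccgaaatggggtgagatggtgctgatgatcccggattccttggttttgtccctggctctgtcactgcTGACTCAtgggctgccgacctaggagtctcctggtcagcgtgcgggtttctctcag

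This region lies in an intron of upstream CLDN4 isoforms. In BT-549 cells (chr7:73822201-73823300) its level was 1.77, 2.01 and 1.68 in vehicle and 6.08, 5.91 and 6.24 in DOX libraries. All DOX libraries stood far above all vehicle libraries, and the log2 change was 1.73 ± 0.14 (SE) (adjusted p = 5.78e-10). In DU-145 cells (chr7:73822101-73823400) the region was open from the start, with 4.83, 4.47 and 4.65 in vehicle and 5.55, 5.72 and 5.18 in DOX libraries. There the change was 0.24 ± 0.08 (SE) (adjusted p = 0.0118), and it became 0.05 with TMM factors (adjusted p = 0.668). It was also not called after removal of a GC trend, with DESeq2, where the sign turned, and without vehicle replicate 2 (0.21, adjusted p = 0.0668). Over the bins of both tables, vehicle BT-549 cells lay below vehicle DU-145 cells by 1.58 on the log2 scale, at -1.58 ± 0.11 (SE) (adjusted p = 2.01e-15). Over the same bins, the BT-549 DOX libraries read 6.08, 5.91 and 6.24 and the DU-145 DOX libraries 6.49, 6.66 and 6.04. The DOX groups of the lines were not compared with each other by a test. The DOX effects differed by 1.5 ± 0.15 (SE) (interaction, adjusted p = 2.49e-10).

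Nearer to the gene, CLDN4 fell in DU-145 cells. At CLDN4 -2.8 kb (chr7:73827401-73829000), the start of an alternative transcript, levels were 5.93, 6.42 and 6.15 in vehicle and 2.92, 3.13 and 2.89 in DOX libraries. DOX lowered the level to below that of any vehicle library, a log2 change of -1.05 ± 0.08 (SE) (adjusted p = 2.53e-13). The canonical promoter region (chr7:73830201-73833900) read 0.821, 1.07 and 0.882 and 0.470, 0.651 and 0.650 and changed by -0.65 ± 0.12 (SE) (adjusted p = 2.18e-05). The BT-549 table has no bins at -2.8 kb, and its nearest CLDN4 region starts downstream of the TSS (chr7:73831601-73832500). That region read 0.731, 0.663 and 0.691 in vehicle and 0.603, 0.495 and 0.580 in DOX libraries, and a change of -0.32 ± 0.32 (SE) was not called (adjusted p = 0.487).

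**Figure D3:**
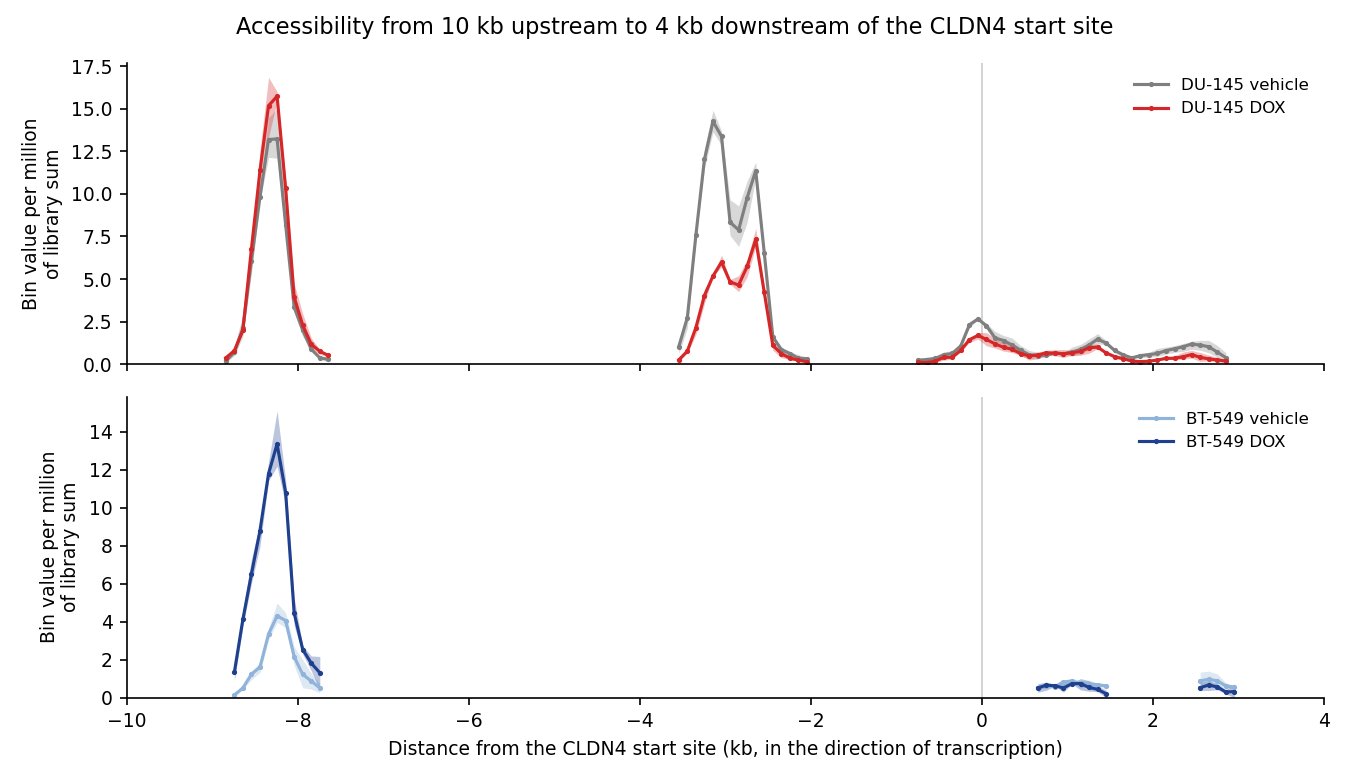
Level of each 100-bp bin (y axis, bin value per 1000000 of the library sum, from 0) against the distance from the CLDN4 start site (x axis, kb) in DU-145 (top) and BT-549 cells (bottom), as the mean of 3 libraries with their range shaded. Gaps hold no bins. At -8.2 kb the BT-549 DOX libraries rise far above the vehicle libraries, and at -2.8 kb the DU-145 DOX libraries lie below the vehicle libraries.

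Further out in the CLDN4 window, the promoter of METTL27 at +11.4 kb fell in DU-145 cells (-0.55 ± 0.11 (SE), adjusted p = 6.73e-05). CLDN4 +20.4 kb rose there by 0.33 ± 0.09 (SE) (adjusted p = 0.00297), but the call was lost with TMM factors (0.14) and the sign turned after removal of a GC trend. In BT-549 cells, CLDN4 +18.6 kb (-0.93 ± 0.31 (SE), adjusted p = 0.0255) and CLDN4 +14.5 kb (-0.77 ± 0.28 (SE), adjusted p = 0.0407) fell, and neither was called with loess offsets, DESeq2, the highest bin alone, removal of a GC trend or the replicate block. The first was also lost without DOX replicate 3 or vehicle replicate 1, 2 or 3 (-0.99 to -0.86, adjusted p = 0.0511 to 0.119), and the second with TMM factors and without DOX replicate 1 or vehicle replicate 1, 2 or 3 (-0.85 to -0.51, adjusted p = 0.0625 to 0.245). The second had no DOX peak and entered the table through its vehicle peaks alone.

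CLDN7, a claudin of the lateral membrane, rose at its promoter in DU-145 cells. Levels at chr17:7260701-7263400 were 0.557, 0.551 and 0.546 in vehicle and 0.898, 1.08 and 0.935 in DOX libraries. All DOX libraries lay above all vehicle libraries, and the log2 change was 0.82 ± 0.12 (SE) (adjusted p = 4.07e-07), or 0.63 with TMM factors. The highest bin of this region lies more than 1 kb downstream of the CLDN7 TSS, the TSS nearest to the region is that of an unnamed gene (ENSG00000262302), and 2 of 3 libraries of each group had a summit within 1 kb of the CLDN7 TSS. The 200 bases before its start site hold the E-box CACCTG at 4 places, a motif found in 13.9% of promoters. In BT-549 cells no bins covered the canonical CLDN7 promoter, and a short region at +1.8 kb read 0.479, 0.201 and 0.624 in vehicle and 1.14, 0.394 and 0.368 in DOX libraries (adjusted p = 0.490). The rises within the CLDN7 window of BT-549 were those of neighbouring promoters.

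Those neighbours were GABARAP and PHF23, at +19.9 and +23.5 kb, CTDNEP1 and ELP5, which share a region at +10.5 kb, and SLC2A4 at -18.9 kb. The GABARAP promoter (chr17:7241601-7243600) read 1.58, 1.72 and 1.91 in vehicle and 3.55, 4.04 and 3.76 in DOX libraries, a change of 1.12 ± 0.13 (SE) (adjusted p = 1.79e-07). The PHF23 promoter changed by 1.06 ± 0.13 (SE) (adjusted p = 3.42e-07) and the CTDNEP1 and ELP5 region by 0.58 ± 0.12 (SE) (adjusted p = 0.000513). The SLC2A4 promoter rose by 0.58 ± 0.16 (SE) (adjusted p = 0.00664), a call lost in the highest bin alone, after removal of a GC trend and without DOX replicate 3 or vehicle replicate 1 (0.45 to 0.51, adjusted p = 0.0555 to 0.0762). In DU-145 cells the GABARAP promoter rose by 0.30 ± 0.11 (SE) (adjusted p = 0.0207) and that of SLC2A4 at -18.7 kb by 0.27 ± 0.10 (SE) (adjusted p = 0.0262), and both calls were lost with TMM factors, with DESeq2 and in the highest bin alone. The GABARAP call was also lost without DOX replicate 2 or vehicle replicate 1 or 3 (0.24 to 0.27, adjusted p = 0.0729 to 0.0916), and the SLC2A4 call without DOX replicate 2 or 3 or vehicle replicate 1 (0.17 to 0.27, adjusted p = 0.0680 to 0.171).

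OCLN encodes occludin, a membrane protein of the junction with a canonical and alternative start sites. Its region near +9.6 kb moved in opposite directions with DOX in the lines, and the highest bin was the same in both. That bin lies in an Alu element, as read from its letters, a repeat with very many near-identical copies in the genome. How reads that match several copies were handled is not given in the sources used here, and its part in the values below was not tested. The windows around the highest bins of OCLN +5.8 kb, TJP1 +87.1 kb, TJP3 +19.6 kb and EPCAM -13.5 kb, whose values for DU-145 cells are given below, also hold stretches that read as Alu letters, and the same limit holds for them.

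The region at +9.6 kb of DU-145 cells (chr5:69501401-69503400), at the start of an alternative transcript, read 0.392, 0.522 and 0.712 in the vehicle libraries and 1.29, 1.02 and 0.957 after DOX. It rose by 1.01 ± 0.16 (SE) (adjusted p = 1.23e-06). In BT-549 cells (chr5:69501501-69503400) the order was the reverse, with 1.99, 2.14 and 1.91 in vehicle and 0.729, 0.770 and 0.999 in DOX libraries and a change of -1.25 ± 0.18 (SE) (adjusted p = 7.02e-06). In neither line did the groups overlap. The DOX effects differed by -2.25 ± 0.26 (SE) (interaction, adjusted p = 3.30e-09). In vehicle cells BT-549 exceeded DU-145 by 1.84 ± 0.15 (SE) over the shared bins (adjusted p = 1.87e-13).

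A further intronic region of OCLN, at +25.1 kb, fell in both lines. In DU-145 cells (chr5:69517401-69518300) it read 3.42, 3.19 and 3.13 in vehicle and 1.42, 1.84 and 1.35 in DOX libraries, a change of -1.07 ± 0.12 (SE) (adjusted p = 4.85e-09). In BT-549 cells it was low from the start, with 0.999, 1.07 and 0.886 and 0.242, 0.338 and 0.477, and changed by -1.46 ± 0.36 (SE) (adjusted p = 0.00271), a call that was lost in the highest bin alone and after removal of a GC trend. In BT-549 cells the region had no DOX peak and entered the table through its vehicle peaks alone. A difference between the DOX effects was not called (-0.36 ± 0.36 (SE), adjusted p = 0.451). OCLN +5.8 kb, found in the DU-145 table alone, was near closed in vehicle (0.133, 0.0216 and 0.116) and open in DOX libraries (0.522, 0.424 and 0.543), a change of 2.63 ± 0.41 (SE) (adjusted p = 1.33e-06). It had no vehicle peak and entered the table through its DOX peaks alone.

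The OCLN promoter rose in BT-549 cells (chr5:69492301-69494300). It read 1.64, 1.70 and 1.25 in vehicle and 2.16, 2.81 and 2.63 in DOX libraries, a change of 0.72 ± 0.16 (SE) (adjusted p = 0.000906). In DU-145 cells the groups overlapped, with 1.89, 1.97 and 1.69 and 1.92, 2.27 and 2.07, and the change of 0.17 ± 0.09 (SE) was not called (adjusted p = 0.111). The effects differed by 0.54 ± 0.18 (SE) (interaction, adjusted p = 0.0134), a call lost with loess offsets, with library sizes over shared bins and without BT-549 vehicle replicate 3 (0.42, adjusted p = 0.0547).

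**Figure D4:**
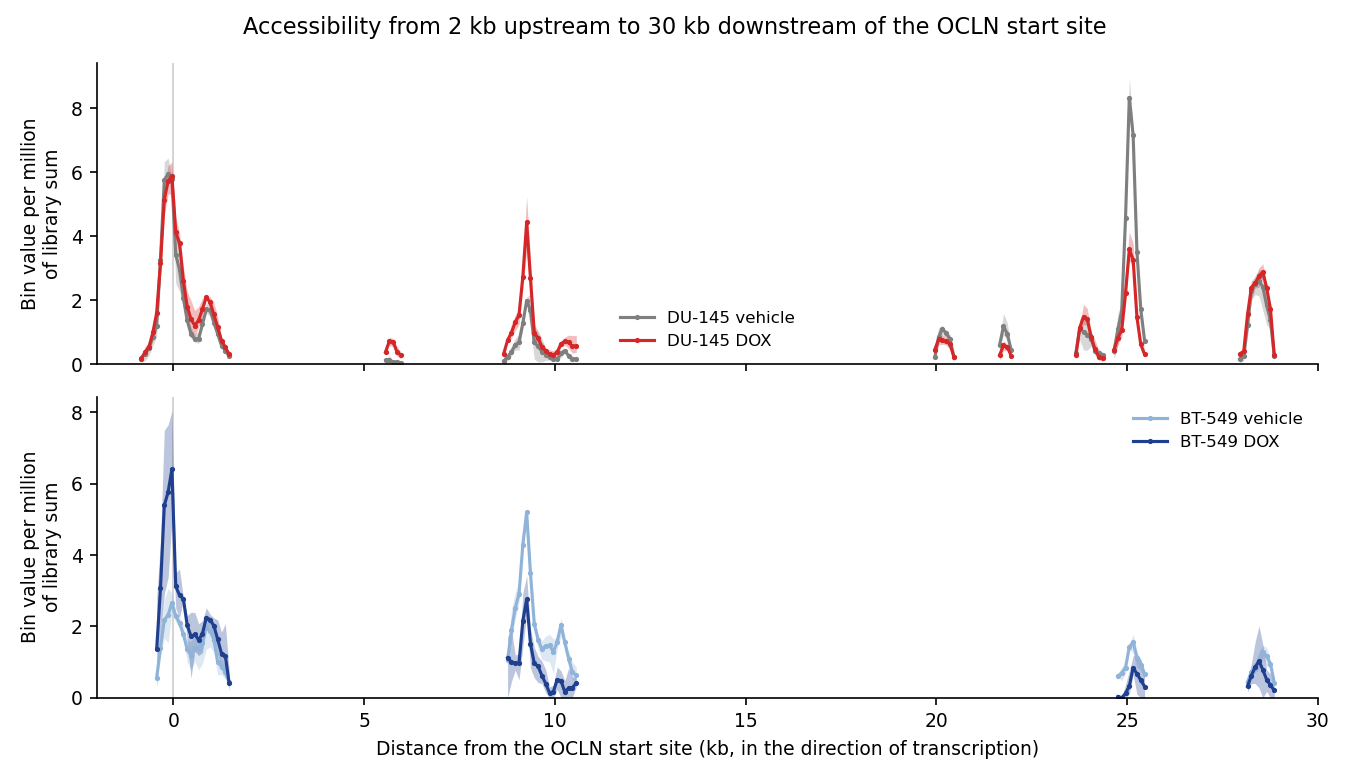
Level of each 100-bp bin (y axis, bin value per 1000000 of the library sum, from 0) against the distance from the OCLN start site (x axis, kb) in DU-145 (top) and BT-549 cells (bottom), as the mean of 3 libraries with their range shaded. DOX raised the region near +9.6 kb in DU-145 and lowered it in BT-549 cells, while the region at +25.1 kb fell in both.

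TJP1 encodes ZO-1, the scaffold that links claudins and occludin to actin, and it held the most regions of any of the 9 genes in DU-145 cells. Of its 16 regions, 9 rose, 1 fell and 6 were not called, against 42.5% rising and 13.3% falling among all DU-145 regions away from promoters. Of the rises, 8 lay in introns and 1 downstream of the gene, and 6 lay upstream of the canonical TSS. The 200 bases around the highest bin of TJP1 -112.0 kb are printed as a region with no vehicle peak that opened with DOX and that holds TGANTCA (capitals, either strand) at 2 places (chr15:29934351-29934550, GRCh38, plus strand). It was picked for these letters, which 51.3% of all DU-145 windows that rose hold at least once.
TJP1 -112.0 kb: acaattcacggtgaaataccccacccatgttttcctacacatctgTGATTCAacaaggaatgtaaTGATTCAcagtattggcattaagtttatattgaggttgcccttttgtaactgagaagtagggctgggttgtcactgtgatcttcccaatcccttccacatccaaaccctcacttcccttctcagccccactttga

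The level of TJP1 -112.0 kb was 0.203, 0.171 and 0.212 in vehicle and 0.816, 0.691 and 0.917 in DOX libraries of DU-145, a change of 2.06 ± 0.28 (SE) (adjusted p = 1.30e-07). The broader region at -102.9 kb (chr15:29924501-29926200) was open in both groups, with 1.85, 1.82 and 2.11 and 4.80, 5.33 and 4.92, and rose by 1.38 ± 0.09 (SE) (adjusted p = 3.72e-15). Its DOX libraries all exceeded the vehicle libraries by more than the spread within either group. TJP1 -98.6 kb went from 0.797, 1.53 and 1.38 to 3.14, 3.29 and 3.22, a change of 1.36 ± 0.14 (SE) (adjusted p = 2.68e-10). These 3 calls held under every alternative tried for the DU-145 regions. Of the remaining rises, TJP1 +51.4 kb (2.51 ± 0.41 (SE), adjusted p = 3.57e-06) and TJP1 +9.6 kb (1.59 ± 0.26 (SE), adjusted p = 2.37e-06) had no vehicle peak and a peak in all 3 DOX libraries. Both, like TJP1 -112.0 kb, entered the table through their DOX peaks alone. TJP1 +51.4 kb read 0.101, 0.0527 and 0.144 in vehicle and 0.679, 0.414 and 0.524 in DOX libraries. The 1 fall, at TJP1 +87.1 kb, went from 0.602, 0.652 and 0.578 to 0.335, 0.226 and 0.256 (-1.20 ± 0.28 (SE), adjusted p = 0.000390). None of the regions at -112.0, -102.9 and -98.6 kb had bins in the BT-549 table.

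The TJP1 promoter itself (chr15:29821101-29823400) read 3.35, 3.33 and 3.23 in vehicle and 2.96, 2.95 and 3.18 in DOX libraries of DU-145. The change of -0.12 ± 0.08 (SE) was not called with library sums (adjusted p = 0.178) and was called lower with TMM factors (-0.32, adjusted p = 0.000995). In BT-549 cells the promoter read 2.52, 2.81 and 3.08 and 3.82, 2.42 and 3.47, and the change of 0.22 ± 0.15 (SE) was not called (adjusted p = 0.286).

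In BT-549 cells, 4 of 6 TJP1 regions fell and none rose, against 18.0% of all BT-549 regions that fell and 22.0% of those away from promoters. None of the 4 had a peak in a DOX library, so all entered the table through their vehicle peaks alone, which favours a fall. With loess offsets 0 of the 4 were called. TJP1 +47.4 kb (chr15:29774901-29775200) read 0.708, 0.616 and 0.720 in vehicle and 0.0995, 0 and 0.0653 in DOX libraries (log2 change -3.02 ± 0.81 (SE), adjusted p = 0.00541). TJP1 -37.7 kb read 0.735, 0.556 and 0.854 and 0.283, 0.140 and 0.0474 (-2.21 ± 0.63 (SE), adjusted p = 0.00843), and TJP1 -129.9 kb 0.727, 0.687 and 0.779 and 0.229, 0.117 and 0.236 (-2.0 ± 0.58 (SE), adjusted p = 0.00944). The mean bin value of these regions was under 1 fragment in every DOX library, and these 3 calls held with TMM factors. That at -37.7 kb was also lost without DOX replicate 3 (-1.83, adjusted p = 0.0515), and that at -129.9 kb with DESeq2 and in the highest bin alone. TJP1 -21.4 kb fell as well (-1.34 ± 0.49 (SE), adjusted p = 0.0397), with a DOX library inside the vehicle range, and was not called with TMM factors, DESeq2, removal of a GC trend or the replicate block, nor without DOX replicate 1 or 2 or vehicle replicate 1 or 2 (-1.28 to -1.04, adjusted p = 0.119 to 0.153). In DU-145 cells the same region rose, from 0.390, 0.449 and 0.386 to 0.921, 0.590 and 0.694 (0.81 ± 0.24 (SE), adjusted p = 0.00414, lost with loess offsets and DESeq2), and the effects differed by -2.17 ± 0.53 (SE) (interaction, adjusted p = 0.00102).

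TJP3 encodes ZO-3, a scaffold found mainly in epithelia. Its promoter in DU-145 cells (chr19:3708001-3709000) read 0.672, 0.563 and 0.913 in vehicle and 0.617, 0.449 and 0.505 in DOX libraries, groups that overlapped. The change of -0.44 ± 0.20 (SE) was not called with library sums (adjusted p = 0.0639), and it was called with TMM factors (-0.63, adjusted p = 0.00717). In the first part of the gene body, TJP3 +2.2 kb fell, from 1.62, 1.30 and 1.01 to 0.582, 0.880 and 0.703 (-0.84 ± 0.21 (SE), adjusted p = 0.000993). An alternative TSS at +19.6 kb was near closed in vehicle (0.275, 0.235 and 0.146) and open in DOX libraries (0.525, 0.677 and 0.496), with a rise of 1.35 ± 0.33 (SE) (adjusted p = 0.000638) that was not called with loess offsets. This region had no vehicle peak and entered the table through its DOX peaks alone. Of the neighbours, the PIP5K1C promoter rose by 0.68 ± 0.13 (SE) in DU-145 (adjusted p = 5.05e-05) and by 0.78 ± 0.23 (SE) in BT-549 cells (adjusted p = 0.0101), and the promoter region of APBA3 and MRPL54 at +54.6 kb fell in DU-145 cells (-0.37 ± 0.09 (SE), adjusted p = 0.000419). The BT-549 call was lost in the highest bin alone, after removal of a GC trend and without DOX replicate 1 or vehicle replicate 1 (0.63 to 0.76, adjusted p = 0.050 to 0.0592). The BT-549 table held no bins of the TJP3 body, and the 3 regions of its window were promoters of those neighbours.

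EPCAM showed the steepest rise of the 63 regions in DU-145 cells. The 200 bases around the highest bin of that region, EPCAM -8.2 kb, are printed for this reason (chr2:47361051-47361250, GRCh38, plus strand). The letters searched, on both strands, were those of AP-1 and SP1 given above, the E-box CACCTG and the GRHL site, and none of these 4 motifs occurs in them.
EPCAM -8.2 kb: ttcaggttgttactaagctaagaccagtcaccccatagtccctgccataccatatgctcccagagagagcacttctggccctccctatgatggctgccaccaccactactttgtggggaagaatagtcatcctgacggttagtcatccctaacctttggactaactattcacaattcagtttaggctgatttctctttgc

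The level of EPCAM -8.2 kb (chr2:47360801-47361400) was 0.153, 0.0819 and 0.0586 in vehicle and 0.982, 1.15 and 0.831 in DOX libraries. All vehicle libraries lay near closed and had no peak, and all 3 DOX libraries had one. Without vehicle peaks, the 3 DOX peaks were required for entry into the table, so the peaks give no separate support for the rise. The log2 change was 3.34 ± 0.30 (SE) (adjusted p = 2.28e-11), and the call held under every alternative tried. EPCAM -29.0 kb rose from 0.738, 0.758 and 0.763 to 1.59, 1.58 and 1.63, a change of 1.09 ± 0.14 (SE) (adjusted p = 3.82e-08). EPCAM -13.5 kb rose as well, from 0.338, 0.315 and 0.366 to 0.825, 0.665 and 0.736 (1.13 ± 0.21 (SE), adjusted p = 2.90e-05). All 3 lie upstream of the canonical TSS, and -8.2 kb lies in an intron of longer annotated EPCAM transcripts.

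The EPCAM promoter in DU-145 cells (chr2:47368701-47370400) read 2.63, 2.25 and 2.41 in vehicle and 2.92, 2.86 and 2.75 in DOX libraries. It was called higher with library sums (0.23 ± 0.09 (SE), adjusted p = 0.0290), was 0.04 with TMM factors (adjusted p = 0.753) and had the opposite sign with DESeq2. The call was also lost without DOX replicate 1 or 2 or vehicle replicate 2 or 3 (0.17 to 0.23, adjusted p = 0.0588 to 0.173). The BT-549 table held no bins of EPCAM or of its promoter.

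ESRP1, the splicing regulator, rose at its promoter in DU-145 cells (chr8:94639001-94642900). It read 1.28, 1.17 and 1.18 in vehicle and 1.80, 1.58 and 1.60 in DOX libraries, without overlap, and changed by 0.45 ± 0.09 (SE) (adjusted p = 3.31e-05). The call was lost with DESeq2 and in the highest bin alone. Within the gene body, ESRP1 +52.2 kb rose by 0.81 ± 0.17 (SE) (adjusted p = 9.25e-05) and, downstream, ESRP1 +72.2 kb by 1.16 ± 0.30 (SE) (adjusted p = 0.00131), and both calls were lost after removal of a GC trend, the latter also with loess offsets and in the highest bin alone. The promoter of the neighbour DPY19L4 fell by 0.47 on the log2 scale (SE 0.09, adjusted p = 5.56e-05).

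In BT-549 cells, no ESRP1 region was called. Upstream of the TSS (chr8:94639601-94641100) levels were 0.801, 0.728 and 0.838 in vehicle and 1.07, 1.10 and 1.32 in DOX libraries, without overlap (0.56 ± 0.23 (SE), adjusted p = 0.0582), and the change was called higher with TMM factors, loess offsets and DESeq2. Downstream of the TSS (chr8:94641801-94643300) they were 0.941, 0.937 and 1.03 and 1.68, 0.988 and 1.08 (0.36 ± 0.23 (SE), adjusted p = 0.242). A difference between the DOX effects at the promoter was not called (0.18 ± 0.21 (SE), adjusted p = 0.523).

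The lines were then compared in vehicle, over the 26 shared regions and with the vehicle libraries that also serve in the DOX comparisons. BT-549 was higher than DU-145 in 9 regions, lower in 8 and not called in 9, against 53.5% of all shared regions higher and 23.0% lower. Library sums put the median of all shared regions at 0.47 and TMM factors at 0.05. With TMM factors 3 of the 26 regions were higher and 13 lower, against 11965 and 11774 of all 32671 shared regions. The share of higher among all called regions moved from 70.0% to 50.4%. CLDN3 had no shared region, nor did the promoters of CLDN7, TJP3 and EPCAM.

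At the promoters of TJP1 and OCLN and upstream of the ESRP1 TSS, BT-549 cells were less accessible. This was common at promoters. Of all 11530 shared regions within 1 kb of a protein-coding TSS, 41.6% were higher in BT-549 and 32.5% lower, with a median of 0.10. With TMM factors 21.6% were higher and 53.4% lower, with a median of -0.32. Upstream of the ESRP1 TSS, vehicle levels over shared bins were 2.15, 2.09 and 2.07 in DU-145 and 0.801, 0.728 and 0.838 in BT-549 cells, a log2 difference of -1.41 ± 0.13 (SE) (adjusted p = 8.49e-12). At TJP1 they were 4.41, 4.40 and 4.33 and 2.52, 2.81 and 3.08 (-0.65 ± 0.09 (SE), adjusted p = 9.14e-08), and at OCLN 2.2, 2.24 and 1.94 and 1.64, 1.70 and 1.25 (-0.47 ± 0.12 (SE), adjusted p = 0.000498). The lines did not overlap at any of these 3 regions. TMM factors moved the median of all shared regions from 0.47 to 0.05, so regions already lower in BT-549 could only become lower with them. That setting is therefore no check of these calls. Downstream of the ESRP1 TSS, at +1.2 kb, BT-549 was instead higher (0.61 ± 0.19 (SE), adjusted p = 0.00377), without overlap (0.729, 0.579 and 0.492 in DU-145 and 0.928, 0.811 and 1.03 in BT-549 cells), a call lost with TMM factors, loess offsets, DESeq2 and the highest bin alone. The CLDN1 promoter was not called (0.13 ± 0.12 (SE), adjusted p = 0.343), and its sign turned with TMM factors (-0.29) and with DESeq2. The CLDN4 promoter was not called with library sums either (-0.32 ± 0.19 (SE), adjusted p = 0.128), although its groups did not overlap, and it was called lower in BT-549 with TMM factors (-0.74, adjusted p = 0.000823), loess offsets, DESeq2, the highest bin alone and library sizes over shared bins.

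Away from the promoters, OCLN +25.1 kb was lower in BT-549 by 1.86 on the log2 scale, at -1.86 ± 0.15 (SE) (adjusted p = 7.71e-14), and OCLN +28.5 kb by 1.11, at -1.11 ± 0.18 (SE) (adjusted p = 8.46e-07). Levels at +25.1 kb were 3.77, 3.54 and 3.5 in DU-145 and 0.999, 1.07 and 0.886 in BT-549 vehicle libraries. Higher in BT-549 were OCLN +9.7 kb, given above, ESRP1 +72.3 kb (1.79 ± 0.28 (SE), adjusted p = 7.34e-07) and TJP1 -21.4 kb (1.02 ± 0.26 (SE), adjusted p = 0.000658, lost with loess offsets and DESeq2). Of the promoters of neighbours, the one of APBA3 and MRPL54 (-0.88 ± 0.12 (SE), adjusted p = 2.09e-08) was lower in BT-549 cells. Those of GABARAP (0.55 ± 0.12 (SE), adjusted p = 0.000157) and DPY19L4 (0.56 ± 0.09 (SE), adjusted p = 5.08e-07) were higher, and both calls were lost with TMM factors and DESeq2. The higher calls at CLDN4 +20.4 kb (0.39 ± 0.10 (SE), adjusted p = 0.000848), the SLC2A4 promoter (0.28 ± 0.12 (SE), adjusted p = 0.0327) and TJP1 -146.2 kb (0.64 ± 0.24 (SE), adjusted p = 0.0156) were lost with both as well. Without BT-549 vehicle replicate 2 or DU-145 vehicle replicate 1, the SLC2A4 and TJP1 -146.2 kb regions were not called, nor was the latter without DU-145 vehicle replicate 2.

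The DOX effect itself differed between the lines in 13 of the 26 shared regions. It was higher in BT-549 in 9 regions and lower in 4, against 17.8% and 22.0% of all shared regions. Among all shared regions, the median difference was 0.31 for those within 1 kb of a protein-coding TSS and -0.42 for the others, and 8 of the 9 regions with a higher effect lay at a promoter of a member or a neighbour. Of all 5812 shared regions with a higher effect, 4122 lay within 1 kb of a protein-coding TSS. The exception among the 9 was CLDN4 -8.2 kb, an intronic region with a difference of 1.5. OCLN +9.7 kb (-2.25) and TJP1 -21.4 kb (-2.17) had the most negative differences.

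**Figure D5:**
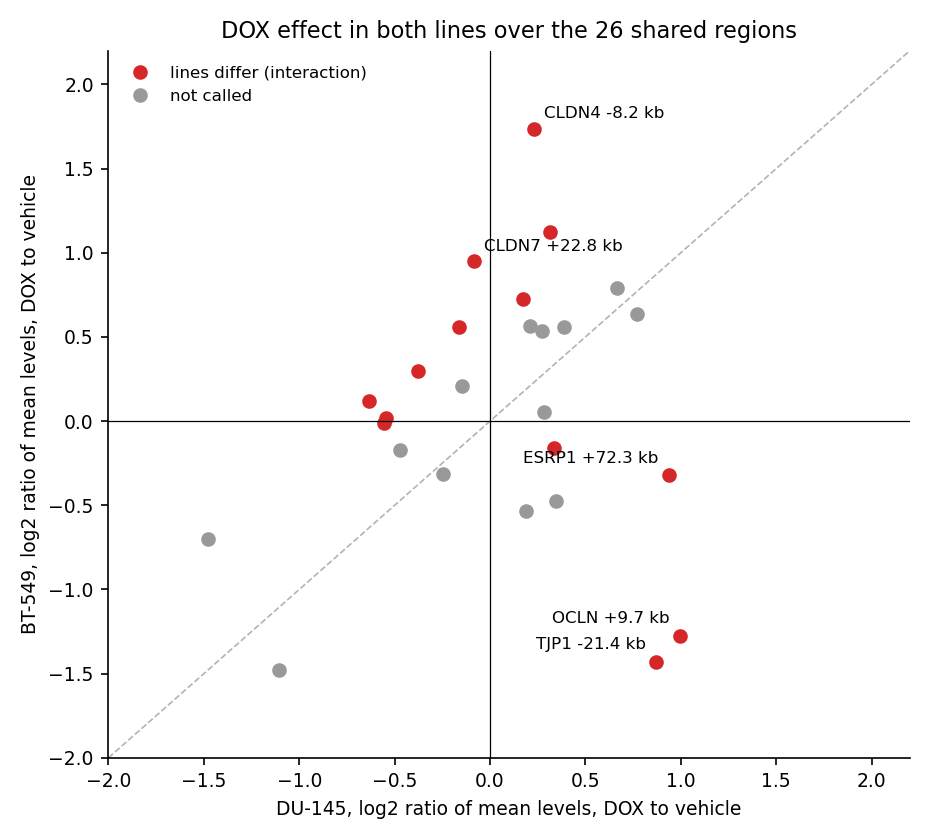
Log2 ratio of the mean DOX to the mean vehicle level in DU-145 (x axis) and BT-549 cells (y axis) for the 26 regions with bins in both tables. Red circles differed between the lines in the interaction test, and the dashed line marks equal effects. CLDN4 -8.2 kb lies high above the dashed line, and OCLN +9.7 kb and TJP1 -21.4 kb lie far below it.

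At the level of single bins, differentially accessible regions (DARs) were bins with a change of at least 2-fold whose adjusted p was below 1e-05 (DU-145) or 0.01 (BT-549), which are the cutoffs of the study's methods, applied here to the quasi-likelihood test of edgeR and not to DESeq2, which the study used. In DU-145 cells, 35 of the 686 bins were opening and 10 closing DARs, against 5.0% and 1.59% of all bins. The opening bins were 21 of TJP1 in 3 regions, 5 of EPCAM, 4 of CLDN1, 3 of OCLN and 2 of CLDN4. The closing bins were 6 of CLDN4, all in 1 region, and 4 of OCLN. With DESeq2, 16 of the bins were opening and 8 closing, against 6517 and 6430 of all 709226 bins tested. In BT-549 cells, 23 of 347 bins were opening and 6 closing, against 2.07% and 2.87% of all bins, with 11 opening bins in the CLDN7 window, 8 at CLDN4, 3 at OCLN and 1 at ESRP1 and with 5 closing bins at OCLN and 1 at TJP1. With DESeq2, 11 were opening and 0 closing, against 4446 and 3223 of 472935, so that the order of opening and closing over all bins turned, and at most 3 closing bins remained when any 1 library was left out. Adjoining bins share fragments and are not independent.

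Levels were also summed over the whole window of each gene. In DU-145 cells, the TJP1 (0.62 ± 0.06 (SE), adjusted p = 8.85e-11) and CLDN7 windows (0.19 ± 0.06 (SE), adjusted p = 0.0145) rose, and those of CLDN3 (-0.61 ± 0.08 (SE), adjusted p = 1.38e-07) and CLDN4 (-0.30 ± 0.06 (SE), adjusted p = 5.02e-05) fell. These are 2 and 2 of 9 genes, against 20.6% and 31.3% of 18204 genes, and the CLDN7 call was lost without vehicle replicate 1 (0.15, adjusted p = 0.0865). In BT-549 cells, the windows of CLDN7 (0.75 ± 0.09 (SE), adjusted p = 1.15e-07) and TJP3 (0.47 ± 0.13 (SE), adjusted p = 0.00631) rose, 2 of 8 genes with bins, against 18.9% of 16974 genes, and both rises were those of neighbouring promoters. None of the 8 fell in the quasi-likelihood test or with DESeq2, and 0 fell at an unadjusted p under 0.05, against 13.8% of genes called lower. In vehicle, BT-549 was higher than DU-145 at 2 of 8 genes and lower at 5, against 45.3% and 33.1% of 16426 genes. TJP3 (-0.52), TJP1 (-0.49), CLDN4 (-0.32) and OCLN (-0.21) were among the lower ones. The shared bins of the TJP3 window lay at promoters of its neighbours. The higher calls at CLDN7 (0.16) and ESRP1 (0.18) were lost with TMM factors, with 0.04 and 0.06 there, and neither or 1 of them stayed called when a library was left out. With the gene body and 5 kb in place of 20 kb, the ESRP1 window was lower in BT-549, at -0.80.

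The other genes of both programmes moved in both directions as well. The median log2 change of the window was 0.05 for the 9 genes, 0.16 for 27 further tight junction genes, -0.02 for 24 further epithelial genes and -0.06 for all genes in DU-145 cells, and 0.03, 0.03, 0.16 and 0.04 in BT-549 cells. For the lines in vehicle these medians were -0.26, -0.42, -0.15 and 0.13. Of the 27 tight junction genes, the windows of 11 rose and 5 fell in DU-145 cells (all genes, 20.6% and 31.3%). CLDN14, a claudin, rose by 1.41 ± 0.16 (SE) (adjusted p = 1.00e-08), while the adhesion receptors CXADR (-0.49 ± 0.05 (SE), adjusted p = 6.57e-09) and JAM2 (-0.49 ± 0.07 (SE), adjusted p = 8.36e-07) fell. In BT-549 cells, 4 of 23 with bins rose and 4 fell (all genes, 18.9% and 13.8%). LSR, a protein of junctions where 3 cells meet, rose by 1.24 ± 0.12 (SE) (adjusted p = 4.10e-10), and the neighbours CLDN6 and CLDN9 rose over the same bins (0.44 ± 0.09 (SE), adjusted p = 0.000201). In vehicle, BT-549 was lower at 13 of 23 of these genes and higher at 7 (all genes, 33.1% and 45.3%), with -2.07 at LSR, -2.07 at F11R, -1.11 at CXADR and -1.07 at CLDN12.

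Of 24 further genes of epithelial identity, 6 rose and 5 fell in DU-145 cells, beside the same shares of all genes (20.6% and 31.3%). The protease gene ST14 (0.55 ± 0.07 (SE), adjusted p = 1.87e-07) and MAL2 (0.31 ± 0.07 (SE), adjusted p = 0.000410) rose, and the transcription factor genes ELF3 (-0.42 ± 0.06 (SE), adjusted p = 2.05e-07) and KLF5 (-0.45 ± 0.07 (SE), adjusted p = 8.97e-07) fell. In BT-549 cells, 4 of 23 rose and 5 fell (18.9% and 13.8% of all genes), with AP1M2 (0.69 ± 0.10 (SE), adjusted p = 2.63e-06) and CDS1 (0.84 ± 0.16 (SE), adjusted p = 9.27e-05) higher and ELF3 (-1.64 ± 0.12 (SE), adjusted p = 1.27e-12) lower. The ELF3 call of BT-549 was lost with 5 kb on each side. In vehicle, BT-549 was lower at 11 of 23 and higher at 8 (33.1% and 45.3% of all genes), with -1.66 at SPINT1, -1.54 at SPINT2, -1.55 at CDS1 and 1.78 at GRHL3. The signs at SPINT1 and SPINT2 turned with 5 kb on each side.

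The letters of 4 motifs were counted on both strands in the 200 bases around the highest bin of each region. TGANTCA was found in 20 of the 63 DU-145 windows and in 33.3% of all DU-145 windows, in 14 of the 29 that rose, 2 of the 13 that fell and 4 of the 21 not called. The shares over all DU-145 windows were 51.3%, 17.9% and 24.4% for these calls. CACCTG was found in 17 of 63 (19.2% of all windows) and GGGCGG in 14 of 63 (17.0%), and AACCGGTT, the site of GRHL factors, in 0 of 63 (0.0556%). In BT-549 cells, TGANTCA was found in 6 of 32 windows (19.3% of all) and CACCTG in 4 of 32 (12.6%). There TGANTCA was in 1 of the 7 that rose, 4 of the 8 that fell and 1 of the 17 not called, against 18.5%, 30.9% and 16.5% of all BT-549 windows. In the 200 bases before the start site, EPCAM held CACCTG at 2 places and TGANTCA at 1, CLDN4 held TGANTCA at 1, and OCLN and ESRP1 held CACCTG at 1, motifs found in 13.9% (CACCTG) and 3.75% (TGANTCA) of promoters. The core of the CTCF motif, chosen after the values were seen, was found in the windows of ESRP1 +72.2 kb and TJP3 +10.7 kb and in 3.87% of all DU-145 windows. These counts use the same contrast as the calls and are a description.

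The 9 genes did not vary as 1 group. Over the 12 libraries, the correlation of a gene's window level with the mean of the others ranged from -0.58 (ESRP1) to 0.86 (TJP3) for the 8 genes with shared bins. The protein-coding genes most like the mean of these 8, by Pearson's r of log2 window levels over 12 libraries that fall into 4 groups, were SLC25A23 (0.98), DNAJB1 (0.98) and TECR (0.97). The libraries share line and depth, and the values describe these libraries alone.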

How the data were processed

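Nuclei of DU-145 and BT-549 cells were profiled by ATAC-seq, in which a transposase cuts open chromatin, in 12 libraries of 4 groups. According to the methods and the submitters' processing notes, the authors aligned paired reads to GRCh38 with BWA, removed duplicates with Picard and called peaks in each library with MACS2 2.2.7.1 at a q-value of 0.05. They merged peaks, kept regions found in at least 3 libraries of a line and split them into 100-bp bins. The deposited tables hold an estimated count per bin, namely the mean number of fragments over its bases, not scaled for depth. Whether cut sites were shifted is not given in the sources used here. The deposited peak lists hold the fold enrichment of each summit over the local background as a ratio, and the p-value and q-value of each peak as -log10 values.

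Bins of each column were rounded to whole numbers for count tests, a choice made because the deposited values were not whole. Adjoining bins were summed into regions, and regions were given to a gene when they lay within its body or 20 kb of it. Libraries were scaled by their column sums. Regions, genes and bins with a total of at least 10 were fitted with edgeR 4.0.16 (quasi-likelihood test, R 4.3.3), separately for each line, for the vehicle libraries of both lines over shared bins, and for the interaction of line and DOX. The p-values were adjusted by the Benjamini-Hochberg method over all features of a fit. They measure the spread between 3 biologically independent replicates a group. Alternatives were TMM factors, loess offsets (limma 3.58.1), DESeq2 1.42.0, other filters, the highest bin of a region, removal of a GC trend, a replicate block, other window sizes and each library left out. The test was tested on simulated data for each fit.

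The 9 genes, the other gene lists and the tests were chosen with earlier results of these data known. By the rule for names, the promoter and up to 3 called regions with the smallest adjusted p were described for each gene and comparison, and up to 4 genes of each list, except results that are not reported here. Other regions of the 9 genes that are named were chosen after their values were seen. Sequences were read from GRCh38, and promoters were placed by the canonical start sites of GENCODE v44. No pair of libraries held the same values, with at most 1.65% of bins equal. The labels call the vehicle groups untreated in 1 field and DMSO in another.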

Additional observations from a re-analysis of the deposited data

Results flagged for a closer look

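For 13 of the 26 regions shared by both tables, the effect of DOX in BT-549 cells minus that in DU-145 cells passed the interaction test of edgeR's quasi-likelihood fit with Benjamini-Hochberg adjustment. The difference on the log2 scale was 1.5 at CLDN4 -8.2 kb (adjusted p = 2.49e-10), where BT-549 rose steeply, and 0.757 at the CLDN1 promoter (adjusted p = 0.00660), which fell in DU-145 and was not called in BT-549. It was -2.25 at OCLN +9.7 kb (adjusted p = 3.30e-09) and -2.17 at TJP1 -21.4 kb (adjusted p = 0.00102), where the lines were called in opposite directions. At TJP1 -21.4 kb neither line was called with loess offsets or DESeq2, nor BT-549 with TMM factors, removal of a GC trend, the replicate block or 4 of its 6 libraries left out in turn, while the interaction call held under every alternative tried.

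Further differences were 0.544 at the OCLN promoter, -0.507 at CLDN4 +20.4 kb and -1.33 at ESRP1 +72.3 kb among the regions of the genes themselves and their flanks. At promoters of neighbours they were 0.531 at METTL27, 1.02 at PHF23, 0.820 at GABARAP, 0.720 at CTDNEP1 and ELP5 and 0.647 at APBA3 and MRPL54. The METTL27 call was lost with loess offsets, in the highest bin alone, with library sizes over shared bins and without BT-549 DOX replicate 3 or BT-549 vehicle replicate 3 or DU-145 DOX replicate 1 or 3 or DU-145 vehicle replicate 1 or 3 (0.42 to 0.54, adjusted p = 0.0520 to 0.107). That of CLDN4 +20.4 kb was lost with DESeq2, in the highest bin alone and without BT-549 DOX replicate 1 or 3 or BT-549 vehicle replicate 2 or DU-145 DOX replicate 2 or DU-145 vehicle replicate 1 or 3 (-0.47 to -0.34, adjusted p = 0.0569 to 0.151), and that of ESRP1 +72.3 kb with loess offsets, DESeq2 and without BT-549 DOX replicate 3 or BT-549 vehicle replicate 2 or DU-145 DOX replicate 3 or DU-145 vehicle replicate 2 or 3 (-1.21 to -1.05, adjusted p = 0.0597 to 0.107). The OCLN promoter was not called with loess offsets, with library sizes over shared bins or without BT-549 vehicle replicate 3 (0.42, adjusted p = 0.0547), nor the region of APBA3 and MRPL54 under the former pair of alternatives, in the highest bin alone or without BT-549 DOX replicate 2 (0.41, adjusted p = 0.0988), and the GABARAP call was lost in the highest bin alone. Over all shared regions the median difference was 0.31 within 1 kb of a protein-coding TSS. The BT-549 DOX libraries were also the shallowest, and the part of depth in these differences was not tested.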

How the results depend on the processing

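Of the results for single regions and gene windows, 2566 values under an alternative kept the side of the threshold. The call was lost in 177 and gained in 79, and 20 turned sign with a call in the main fit or the alternative. Signs that turned without a call in either were counted among the 2566, as at TJP3 -8.2 kb in the vehicle comparison (0.25, and -0.16 with TMM factors). With DESeq2 the regions that rose in DU-145 were 19 in place of 29, those that fell in BT-549 were 4 in place of 8, the vehicle comparison gave 2 higher and 13 lower in place of 9 and 8, and the interaction gave 2 lower in place of 4. TMM factors gave 3 higher and 13 lower in the vehicle comparison. Loess offsets gave 2 falling regions in BT-549, 5 higher regions in the vehicle comparison and 5 higher in the interaction, and library sizes over shared bins also gave 5 higher in the interaction in place of 9. Removal of a GC trend gave 21 falling regions in DU-145 in place of 13 and 4 in BT-549, and the highest bin gave 4 in BT-549. The 2-fold cutoffs of the study left 11 rising and 2 falling regions in DU-145 and 3 and 5 in BT-549.

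Gene windows that rose in DU-145 were 5 with loess offsets and 4 with 5 kb on each side, in place of 2. Windows higher in BT-549 than in DU-145 vehicle cells were 0 with TMM factors, loess offsets, DESeq2 and 5 kb on each side, in place of 2. DESeq2 gave 16 opening DARs in DU-145 in place of 35, and 11 opening and 0 closing in BT-549 in place of 23 and 6. With summits within 1 kb, 3 genes in place of 6 had a promoter peak in all BT-549 vehicle libraries.

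With each library left out in turn, the falling regions in BT-549 numbered 5 to 8, with 5 without vehicle replicate 1 or 2. The regions lower in the interaction numbered 2 to 5, with 2 without BT-549 DOX replicate 3, BT-549 vehicle replicate 2 or DU-145 vehicle replicate 3. The rising windows in DU-145 were 1 to 2, with 1 without vehicle replicate 1, and the windows higher in BT-549 vehicle cells were 0 to 1, with 0 without DU-145 vehicle replicate 3. Opening DARs in BT-549 numbered 12 to 23, with 12 without DOX replicate 3, and closing DARs 0 to 3, with 0 without DOX replicate 2.

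These signs turned with a call in the main fit or the alternative, on the log2 scale. Signs that turned without a call in either are not listed, such as that of the DU-145 OCLN promoter with TMM factors (-0.02). In DU-145 cells with DOX, removal of a GC trend gave -0.239 at CLDN4 +20.4 kb, -0.456 at OCLN +28.4 kb, -0.139 at TJP1 +123.9 kb, -0.464 at TJP1 +85.6 kb and -0.492 at TJP1 +6.8 kb. DESeq2 gave -0.0142 at the EPCAM promoter and -0.00605 at CLDN4 -8.2 kb, and the highest bin gave -0.0667 at CLDN7 -18.7 kb. In the vehicle comparison, TMM factors and DESeq2 gave -0.289 and -0.304 at the CLDN1 promoter, -0.0319 and -0.0439 at CLDN4 +20.4 kb and -0.137 and -0.150 at CLDN7 -18.8 kb. There the highest bin gave -0.509 at CLDN7 -18.8 kb and loess offsets -0.134 at TJP1 -146.2 kb. With 5 kb on each side the ESRP1 window was 0.454 for DOX in BT-549 and -0.799 in the vehicle comparison, where SPINT1 was 0.168 and SPINT2 0.0772. The cause of these changes was not tested.

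Replicate numbers did not pair the samples, since vehicle and DOX libraries of 1 number deviated together with correlations of -0.031 to 0.034 in DU-145 and 0.0042 to 0.065 in BT-549 cells. The replicate block left 5 falling regions in BT-549 in place of 8 and kept 29 rising and 13 falling in DU-145. Losses in BT-549 are limited by the DOX libraries, whose bin values summed to 2.5 to 3.27 in units of 1000000 and in which 2.58% to 6.35% of bins were at 0. Regions enter a table only when called, so closed chromatin is not measured, and the effect of DOX without the hairpin was not analysed here.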
